A study of Homo sapiens with 4 samples.

Results

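The C/EBP family of transcription factors and the Tribbles pseudokinases that control C/EBP protein levels were followed in NB4 cells after JMJD3 overexpression. The 10 genes were taken by name from the 60662 genes of the deposited table, and comprised CEBPA, CEBPB, CEBPD, CEBPE, CEBPG, CEBPZ, DDIT3, TRIB1, TRIB2 and TRIB3. NB4 is a human acute promyelocytic leukemia cell line that carries the PML-RARα fusion. Polyadenylated RNA was sequenced from cells transduced with an empty control vector (2 libraries) and from cells transduced with a JMJD3-expressing vector (2 libraries), to find which genes respond to this H3K27 demethylase. Per the study's methods the vectors were lentiviral and also encoded GFP, by which transduced cells were sorted, so that both groups carried a provirus and GFP. No source says if replicates were separate cultures or transductions, so p-values measure only the spread between samples, which may be technical.

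C/EBP proteins are basic leucine zipper (bZIP) factors that bind DNA as dimers with each other or with related factors. In granulopoiesis, C/EBPα drives the commitment of progenitors to the myeloid fate, C/EBPε the terminal maturation of granulocytes with their secondary granules, and C/EBPβ the granulocyte output under emergency demand. Tribbles proteins are pseudokinases without efficient catalysis that act as scaffolds, and TRIB1 and TRIB2 bring C/EBPα to the ubiquitin ligase COP1 for degradation.

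The promoters of the members that moved, and of CEBPG, which held the only C/EBP-ATF composite letters among them, are shown so that their base content and motifs can be read beside the expression values. From the RefSeq promoter table (GRCh38.p14), 13 windows of 300 bases were used for 8 of the 10 members. Each had 250 bases before and 50 bases after a transcription start. Windows of CEBPD and TRIB1 were not included, so the promoters of these members were not examined. Capitals mark the letters TATAAA or CCAAT or TTGCATCA on either strand, except in the upstream CEBPB window, where they mark the binding sites of a ChIP-qPCR primer pair that the study used for the CEBPB promoter.
CEBPA, chr19:33302485-33302784, minus strand: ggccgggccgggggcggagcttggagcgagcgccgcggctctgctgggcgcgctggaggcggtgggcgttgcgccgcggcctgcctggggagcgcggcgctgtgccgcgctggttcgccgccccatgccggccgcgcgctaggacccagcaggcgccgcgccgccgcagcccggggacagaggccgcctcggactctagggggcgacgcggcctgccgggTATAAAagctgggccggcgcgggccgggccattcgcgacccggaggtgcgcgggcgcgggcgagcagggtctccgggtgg
CEBPE, chr14:23119206-23119505, minus strand: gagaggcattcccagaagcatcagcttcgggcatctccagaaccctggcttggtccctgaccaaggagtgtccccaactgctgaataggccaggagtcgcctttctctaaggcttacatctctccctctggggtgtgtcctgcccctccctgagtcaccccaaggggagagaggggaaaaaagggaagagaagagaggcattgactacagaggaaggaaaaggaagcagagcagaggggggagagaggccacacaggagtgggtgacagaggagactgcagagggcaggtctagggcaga
CEBPB, upstream start, chr20:50190333-50190632, plus strand: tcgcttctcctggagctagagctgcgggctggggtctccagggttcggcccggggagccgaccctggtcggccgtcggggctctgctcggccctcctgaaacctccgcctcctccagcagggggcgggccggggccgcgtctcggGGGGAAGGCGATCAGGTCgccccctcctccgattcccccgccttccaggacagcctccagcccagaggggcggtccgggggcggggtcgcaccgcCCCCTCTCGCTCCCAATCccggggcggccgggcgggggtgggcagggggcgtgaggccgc
CEBPB, downstream start, chr20:50190580-50190879, plus strand: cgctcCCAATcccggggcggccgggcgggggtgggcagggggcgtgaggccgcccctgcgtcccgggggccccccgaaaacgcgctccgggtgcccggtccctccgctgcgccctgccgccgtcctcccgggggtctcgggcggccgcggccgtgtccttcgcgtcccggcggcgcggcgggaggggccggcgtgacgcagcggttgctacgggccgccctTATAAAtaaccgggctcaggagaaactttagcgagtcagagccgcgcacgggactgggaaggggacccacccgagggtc
CEBPG, downstream start, chr19:33373863-33374162, plus strand: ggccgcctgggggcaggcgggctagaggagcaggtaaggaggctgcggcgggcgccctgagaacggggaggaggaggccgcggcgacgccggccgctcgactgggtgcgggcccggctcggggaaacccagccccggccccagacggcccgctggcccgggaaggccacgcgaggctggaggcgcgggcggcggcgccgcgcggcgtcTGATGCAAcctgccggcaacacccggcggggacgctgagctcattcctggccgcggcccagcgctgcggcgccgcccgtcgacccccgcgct
DDIT3, chr12:57520465-57520764, minus strand: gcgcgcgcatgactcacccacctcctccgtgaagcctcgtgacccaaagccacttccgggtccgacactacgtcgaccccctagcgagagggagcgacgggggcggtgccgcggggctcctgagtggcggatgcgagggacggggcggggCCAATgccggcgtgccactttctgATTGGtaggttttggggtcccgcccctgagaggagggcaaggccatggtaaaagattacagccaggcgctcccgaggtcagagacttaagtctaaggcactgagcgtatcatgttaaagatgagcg
The TATA box letters TATAAA began 30 bases before the CEBPA start and 29 bases before the downstream CEBPB start, and were in 2 of the 13 windows of the members and in 11.5% of all 35116 promoter windows. The letters CCAAT, on either strand, were in 5 windows, those of CEBPB, CEBPG and DDIT3, against 34.6% of all windows. These 5 are not separate promoters. The DDIT3 windows overlap and hold the same CCAAT sites, and the CEBPB windows share the same CCAAT site. Windows of TRIB3 overlap as well. TTGCATCA was in 1 window, as TGATGCAA in that of CEBPG, and in 0.866% of all windows. The palindrome TTGCGCAA was in 0 of the 13 windows and in 0.151% of all. The 2 CEBPB windows overlap each other. In the upstream one the primer pair, GGGGAAGGCGATCAGGTC and GATTGGGAGCGAGAGGGG, spans 113 bases on chromosome 20, from 50190478 to 50190590. Its second primer is read on the minus strand and covers the CCAAT letters there, which begin at base 3 after the start. The CEBPE window had 57.7% G and C, near the median of 58.7% over all windows, and 2 CpG dinucleotides, below the median of 14. That of CEBPA had 80.7% and 50, and that of DDIT3 63.3% and 26. A match of letters describes the window only.

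The deposited counts are not numbers of reads. Within each library nearly all low values were whole multiples of 1 constant, which was 1.14 and 1.05 in vector libraries 1 and 2 and 0.993 and 0.829 in JMJD3 libraries 1 and 2. After division by it, between 93.6% and 93.9% of the values under 1000 reads lay within 0.05 of a whole number. The deposited totals were 39078443, 40768225, 35176388 and 34704909 counts for vector libraries 1 and 2 and JMJD3 libraries 1 and 2. The recovered totals were 34190341, 38947096, 35431658 and 41876224 reads in the same order. The library with the lowest deposited total, JMJD3 library 2, was thus the one with the most reads. Numbers of reads given here are the recovered ones. CPM values are counts scaled to library size with TMM factors, and FPKM values are the authors' own, which are per length and allow levels of different genes to be set side by side.

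JMJD3 itself, encoded by KDM6B (ENSG00000132510), was read first. It had 511 and 501 reads in the vector libraries and 1412 and 1973 reads in the JMJD3 libraries. Both JMJD3 libraries lay above both vector libraries. By edgeR's quasi-likelihood test the log2 fold change was 1.48 (95% interval 1.17 to 1.78, Benjamini-Hochberg adjusted p = 0.00114), and 1.53 within the 3 libraries of 1 sequencing lane described below. Reads of the introduced and of the cell's own gene are not separated in counts per gene.

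In the JMJD3 cells CEBPE, CEBPD, CEBPB, DDIT3 and TRIB1 were higher and CEBPA was lower, while CEBPG, CEBPZ and TRIB3 did not pass the test and TRIB2 was not expressed above the limit of detection. A call required an adjusted p under 0.05 in edgeR's quasi-likelihood test over the 15246 genes that passed its filter on low counts, with no limit on fold change. Of the members 9 passed this filter. The calls were 5 higher and 1 lower, against 21.6% of all tested genes called higher and 19.1% called lower. Where a change of at least 2-fold was also required, 7.55% of all tested genes were higher and 2.82% lower, and 0 members passed in either direction. The libraries of the groups were fully apart in 5 members that were higher and in 2, CEBPA and CEBPZ, that were lower in JMJD3 cells, against 39.6% and 34.8% of all tested genes. The median log2 fold change was 0.65 over the 9 tested members and 0.04 over all tested genes. RNA was measured in bulk from many sorted cells, so fewer cells expressing a gene and less of its RNA per cell cannot be told apart.

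**Figure D1:**
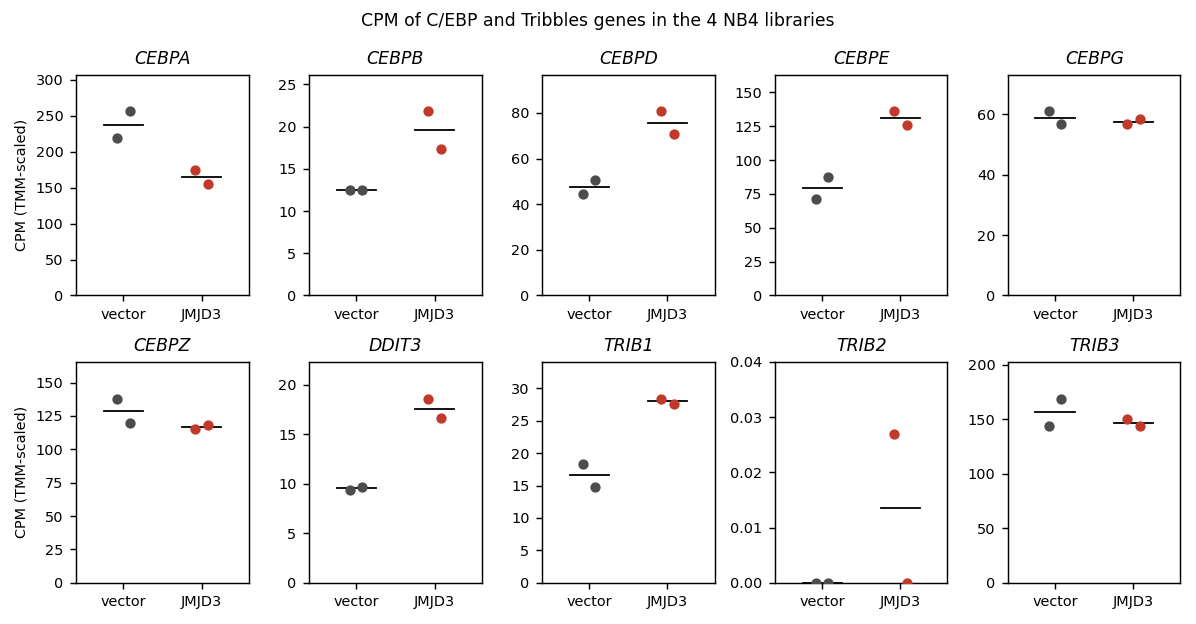
CPM of the 10 members (y axis, from 0, a scale for each gene) in the 2 vector and 2 JMJD3 libraries of NB4 cells. Points are libraries and lines are group means. CEBPA lay at 219 and 256 CPM in vector and at 175 and 155 CPM in JMJD3 libraries, and TRIB2 had 1 read in 1 library.

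CEBPA (ENSG00000245848), on chromosome 19 of GRCh38.p14 from 33299934 to 33302534, was the only member called lower. It had 7086 and 9331 reads in the vector libraries and 6540 and 6940 reads in the JMJD3 libraries. Scaled to library size these were 219 and 256 CPM against 175 and 155 CPM, so that both JMJD3 libraries lay below both vector libraries. The log2 fold change was -0.52 (95% interval -0.78 to -0.27, edgeR adjusted p = 0.0106). By its labels, vector library 1 was run on lane 20 and the remaining 3 on lane 17, and among those 3 alone the log2 fold change was -0.67. That fit assumes that the lone vector library varies like the others. Without JMJD3 library 2 it was -0.43 and did not pass (edgeR adjusted p = 0.0801, from 9.81e-06 to 0.0801 over 14 alternatives, the lowest from a block chosen after seeing the data).

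CEBPE (ENSG00000092067), on chromosome 14 from 23117306 to 23119255, had 2310 and 3201 reads in the vector libraries and 5087 and 5647 in the JMJD3 libraries. On the CPM scale the vector libraries were at 71.2 and 87.8 and the JMJD3 libraries at 136 and 126. All values of 1 group lay above those of the other, and the log2 fold change was 0.72 (95% interval 0.44 to 1.00, edgeR adjusted p = 0.00515), and 0.54 within lane 17. CEBPD (ENSG00000221869), whose product takes part in granulocyte maturation and acute phase responses, lies on chromosome 8 from 47736913 to 47738164. It had 1444 and 1847 reads in the vector and 3011 and 3160 in the JMJD3 libraries, or 44.5 and 50.6 CPM against 80.7 and 70.7 CPM. The groups did not overlap, and its log2 fold change was 0.67 (95% interval 0.40 to 0.94, edgeR adjusted p = 0.00575), with 0.54 within lane 17.

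CEBPB (ENSG00000172216), on chromosome 20 from 50190583 to 50192690, was among the less abundant C/EBP genes. It had 406 and 457 reads in the vector libraries, both 12.5 CPM, and 815 and 778 reads in the JMJD3 libraries, 21.8 and 17.4 CPM. The vector libraries were close together and the JMJD3 libraries farther apart, library 1 being the higher. The log2 fold change was 0.65 (95% interval 0.33 to 0.97, edgeR adjusted p = 0.0114), and 0.60 within lane 17. It rested in part on that library, since without JMJD3 library 1 it was 0.48 and did not pass (edgeR adjusted p = 0.125, from 0.000155 to 0.125 over 14 alternatives, the lowest from the same block).

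DDIT3 (ENSG00000175197), on chromosome 12 from 57516588 to 57520517, encodes CHOP, a stress-induced bZIP protein that pairs with C/EBP factors and keeps them from their usual sites. It had 304 and 354 reads in the vector libraries and 695 and 742 reads in the JMJD3 libraries, which is 9.36 and 9.72 CPM against 18.6 and 16.6 CPM. Both JMJD3 libraries were above both vector libraries by more than the spread within either group. Its log2 fold change of 0.88 (95% interval 0.61 to 1.16, edgeR adjusted p = 0.00272) was the largest among the tested members with all libraries. Within lane 17 that of DDIT3 was 0.81, below that of TRIB1 at 0.88. DDIT3 shares 27.2% of its exon bases with MARS1 on the opposite strand. The library kit as described does not mark strand, so that reads of the 2 genes cannot be told apart there. MARS1 was lower in JMJD3 cells, with 10399 and 11884 against 7134 and 8098 reads and a log2 fold change of -0.80 (edgeR adjusted p = 0.00132), the opposite direction to DDIT3. Its deposited count per FPKM was 82.3 and 82.1 in the vector and 60.7 and 74.9 in the JMJD3 libraries, so the size of its change differs between counts and FPKM.

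CEBPG (ENSG00000153879), a C/EBP protein without a strong activation domain of its own, lies beside CEBPA on chromosome 19 from 33373709 to 33382686. It had 1977 and 2074 reads in the vector and 2116 and 2613 reads in the JMJD3 libraries, and the groups overlapped on the CPM scale, at 61.0 and 56.9 against 56.7 and 58.5. The difference did not pass the test, with a log2 fold change of -0.03 (95% interval -0.25 to 0.19, edgeR adjusted p = 0.793), and -0.03 within lane 17. Upper quartile scaling gave 0.01. CEBPZ (ENSG00000115816), on chromosome 2 from 37201612 to 37231596, is named for CCAAT binding but is not a bZIP protein. It had 138 and 120 CPM in the vector libraries and 115 and 118 CPM in the JMJD3 libraries, which did not overlap, and a log2 fold change of -0.15 (95% interval -0.37 to 0.08, edgeR adjusted p = 0.244) that did not pass, with -0.09 within lane 17. Without vector library 2 it was -0.25 and passed (edgeR adjusted p = 0.0239, from 0.0239 to 0.686 over 14 alternatives).

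FPKM and counts did not give CEBPZ the same pattern. Its deposited count per FPKM, which follows the length used for the gene in a library, was 112 in 3 libraries and 86.1 in vector library 2. Thus vector library 2 had the lower CPM but the higher FPKM of the vector libraries, at 53.2 against 45.7. With limma on log2(FPKM + 1) the log2 fold change of CEBPZ was -0.35 and did not pass (limma adjusted p = 0.0573, from 0.0239 to 0.686 over 14 alternatives). For CEBPA, CEBPB, CEBPD, CEBPE, CEBPG and TRIB3 this ratio differed between libraries by at most 1.01-fold, for DDIT3 by 1.04-fold and for TRIB1 by 1.11-fold. CEBPZ also shares 9.99% of its exon bases with CEBPZOS on the opposite strand, which was higher in JMJD3 cells (log2 fold change 0.57, edgeR adjusted p = 0.00487).

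Among the Tribbles genes only TRIB1 passed the test. TRIB1 (ENSG00000173334), on chromosome 8 from 125430358 to 125438403, had 595 and 540 reads in the vector libraries and 1059 and 1235 reads in the JMJD3 libraries. These were 18.3 and 14.8 CPM against 28.4 and 27.6 CPM, with both JMJD3 libraries above both vector libraries. The log2 fold change was 0.76 (95% interval 0.45 to 1.06, edgeR adjusted p = 0.00588), and 0.88 within lane 17. TRIB3 (ENSG00000101255), on chromosome 20 from 380760 to 397559, is induced by amino acid and endoplasmic reticulum stress and binds AKT kinases. It was the most abundant Tribbles gene, with 144 and 169 CPM in the vector and 150 and 144 CPM in the JMJD3 libraries, and the groups overlapped. Its log2 fold change of -0.09 (95% interval -0.33 to 0.15, edgeR adjusted p = 0.496) did not pass. Within lane 17 it was -0.25 and passed (edgeR adjusted p = 0.0217, from 0.0217 to 0.872 over 14 alternatives), while without vector library 2 it was 0.03. TRIB2 (ENSG00000071575), on chromosome 2 from 12716936 to 12742734, had 0 reads in 3 libraries and 1 read in JMJD3 library 1. A count of 0 allows up to 3 reads, between 0.0716 and 0.0877 CPM on recovered reads, and this limit covers counting error only.

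**Figure D2:**
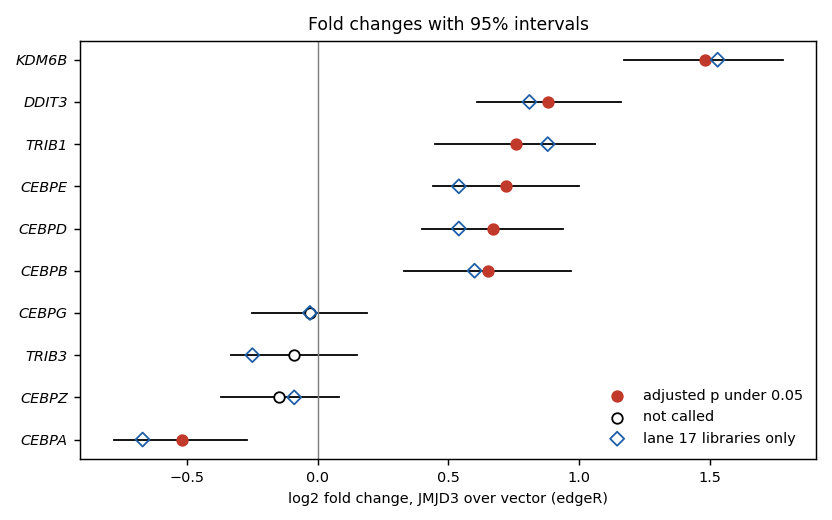
Log2 fold change of JMJD3 over vector (x axis, edgeR) for the 9 tested members and KDM6B, with 95% intervals as lines. Filled circles had an adjusted p under 0.05, open circles did not, and diamonds give the value from the 3 libraries of lane 17, where vector has 1 library. The intervals of CEBPG, CEBPZ and TRIB3 include 0, and only that of CEBPA lies wholly below it.

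By FPKM, the order of the members changed at the top. In vector cells CEBPA led with 101 ± 13.2 FPKM (SD, n = 2), followed by TRIB3 at 73.4 ± 9.50 and CEBPE at 62.2 ± 10.3 (SD, n = 2), the latter with overlapping libraries. In JMJD3 cells CEBPE led with 101 ± 5.01 FPKM (SD, n = 2), followed by CEBPA at 69.0 ± 5.76 and TRIB3 at 68.4 ± 1.93 (SD, n = 2), whose libraries overlapped. CEBPD reached the level of CEBPZ, at 39.1 ± 3.55 against 38.5 ± 0.723 FPKM (SD, n = 2), also with overlapping libraries. DDIT3 went from below CEBPG, at 14.4 ± 0.368 against 15.5 ± 0.447 FPKM (SD, n = 2), to above it, at 26.7 ± 1.96 against 14.9 ± 0.336 FPKM (SD, n = 2). CEBPB stayed at place 8 with 7.35 and 7.56 FPKM in vector and 12.7 and 10.2 FPKM in JMJD3 libraries, and TRIB1 at place 9 with 5.45 ± 1.08 and 9.46 ± 0.257 FPKM (SD, n = 2). Among all genes with an FPKM above 0, CEBPA stood above 94.1% in vector cells and CEBPE above 95.2% in JMJD3 cells, and CEBPB above 67.3% and 72.0%.

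**Figure D3:**
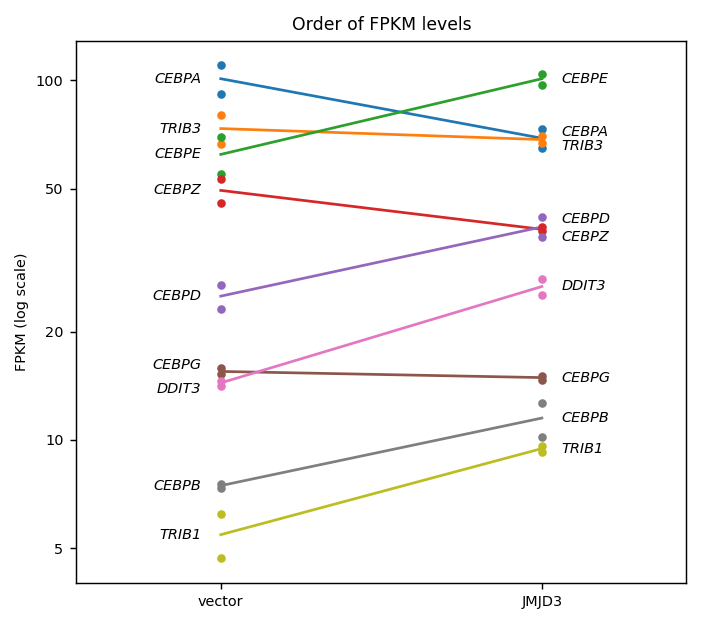
FPKM (y axis, log scale) of 9 members in vector and JMJD3 cells. Points are libraries and lines join the group means. CEBPE, at 62.2 FPKM in vector cells, was the highest in JMJD3 cells at 101 FPKM, and CEBPA fell from 101 to 69.0 FPKM.

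The makeup of the family differed between the groups. The summed FPKM of the 6 bZIP members was 207 and 244 in the vector libraries and 274 and 249 in the JMJD3 libraries. FPKM over all genes summed to 1344845 and 1445366 in the vector libraries and to 1004715 and 1018094 in the JMJD3 libraries. The family sums are thus not on a common total, and their change was not tested. Shares within a library do not depend on that total. CEBPA made up 44.3% and 45.2% of the family sum in the vector libraries and 26.7% and 26.1% in the JMJD3 libraries, a difference of -18.4 percentage points between the group means. CEBPE made up 26.5% and 28.5% against 38.0% and 39.0%, a difference of 11.0 points. Both differences exceeded the spread within the groups, as the values show. CEBPD went from 11.2% and 11.1% to 15.2% and 14.7%, and DDIT3 from 6.82% and 5.99% to 10.2% and 10.1%. CEBPB stayed a small part, at 3.55% and 3.10% against 4.64% and 4.09%. The ratio of CEBPB to CEBPA was 0.0802 and 0.0685 in the vector libraries and 0.174 and 0.157 in the JMJD3 libraries, and that of CEBPE to CEBPA 0.599 and 0.630 against 1.42 and 1.49. Of the Tribbles sum, TRIB3 held 91.5% and 94.5% in vector and 87.8% in each JMJD3 library, and TRIB1 8.52% and 5.53% against 12.1% and 12.2%. No test was run on shares.

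**Figure D4:**
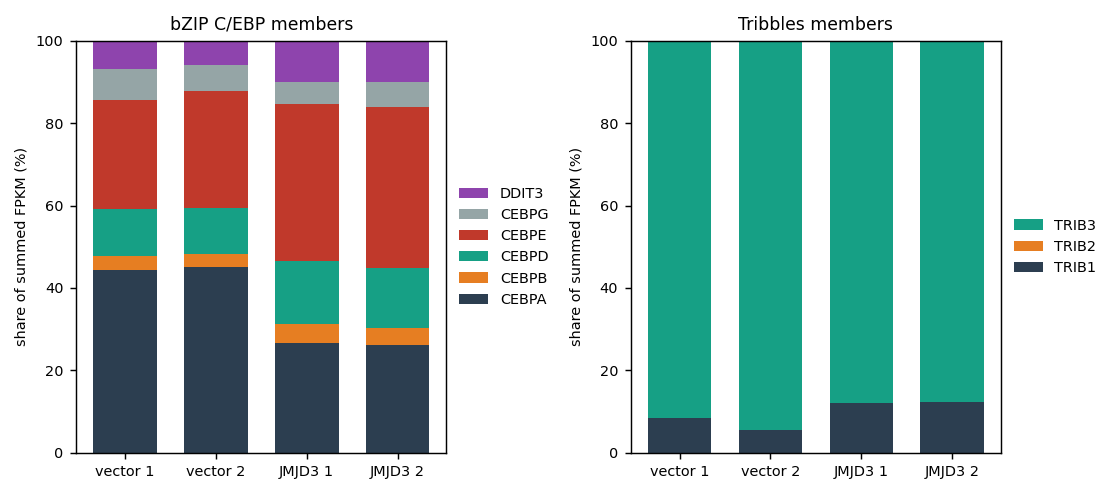
Share of each gene in the summed FPKM (y axis, %) of the 6 bZIP members on the left and of the Tribbles genes on the right, with 1 bar for each library. CEBPA takes 44.3% and 45.2% in the vector bars and 26.7% and 26.1% in the JMJD3 bars.

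The genes whose pattern over the 4 libraries lay nearest to that of a member were looked up among 8934 tested genes with a mean of at least 10 CPM, by the distance between centred log2(CPM + 1) values. With 4 libraries this describes level patterns only. Nearest to CEBPA were PPIA, the gene for cyclophilin A, NPM3 and ZNF593, at distances of 0.0225, 0.0237 and 0.0255. PPIA has many processed copies in the genome among which reads may have been divided. Nearest to CEBPB were ANXA2, ELMOD2 and PI4K2B, at distances of 0.110, 0.122 and 0.128. Nearest to TRIB1 were ZRANB2, UBQLN2 and MAT2A, at 0.0340, 0.0365 and 0.0378.

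Genes for bZIP factors that can pair with C/EBP proteins or read related sites were called in both directions. Of 21 such genes 20 were tested, 8 were higher and 5 lower, against 21.6% and 19.1% of all tested genes. Their median log2 fold change was 0.23, and that of all tested genes 0.04. Among genes that passed with a mean FPKM of at least 1, the largest rises were those of CREB1 and FOS, both by 0.80 on the log2 scale (edgeR adjusted p = 0.00879 and 0.00645), and of ATF2 by 0.73 (edgeR adjusted p = 0.0154). On log2(FPKM + 1) the change of CREB1 was 1.22, and limma called 6 genes of the list higher and 4 lower. ATF7, chosen after its values were seen, was called higher on counts, at 0.40 (edgeR adjusted p = 0.046). Its FPKM went the other way, from 9.4 and 11.6 in the vector libraries to 6.17 and 7.88 in the JMJD3 libraries. ATF5, a stress-responsive factor, fell from 57.5 and 66.4 CPM in the vector libraries to 18.9 and 18.3 CPM in the JMJD3 libraries. Its log2 fold change of -1.74 (-1.88 within lane 17, edgeR adjusted p = 0.000562) was the largest decrease among them. BATF, at -0.52, and JUND, at -0.45, were also lower, and so were ATF4 at -0.43 and JDP2 at -0.40, which were chosen after their values were seen. BATF and JUND did not pass with no filter on low counts or without either JMJD3 library, JUND also not on FPKM, and ATF2 not with no filter. The list counts were 7 higher and 6 lower within lane 17, 5 and 2 without JMJD3 library 1, 8 and 1 without JMJD3 library 2, and 5 and 2 with no filter. The counts over all genes also differed between these fits, with 4248 higher and 4212 lower within lane 17, 2027 and 1368 without JMJD3 library 1, 1890 and 1110 without JMJD3 library 2, and 1893 and 1776 with no filter, against 3292 and 2906 with all libraries. List counts from these fits given below are to be read beside them.

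Among 14 genes for the COP1 ligase complex and for kinases that Tribbles proteins bind, 0 were higher and 5 lower, with a median log2 fold change of -0.26. AKT2, MAP2K7 and DDB1 were lower, with log2 fold changes of -0.49, -0.46 and -0.42 (edgeR adjusted p = 0.00634, 0.0127 and 0.00518). DDA1, at -0.34, was also lower and was chosen after its value was seen. COP1, the ligase itself and also chosen after its value was seen, had a log2 fold change of -0.03 and did not pass. At the same tests 21.6% of all genes were higher and 19.1% lower. The count of lower genes was 8 within lane 17, where 4212 of all genes were lower. It was 0 without JMJD3 library 1 and without JMJD3 library 2, where 1368 and 1110 were.

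Of 27 genes for kinases, ligases, cofactors and RNA-binding proteins described as acting on C/EBP proteins or their mRNAs, 0 were higher and 8 lower, against 21.6% and 19.1% of all tested genes, with a median log2 fold change of -0.21. GSK3A, a kinase of C/EBP proteins, and CDK6, which binds C/EBPα, were both at -0.48 (edgeR adjusted p = 0.00727 and 0.0317). Neither passed without JMJD3 library 1 or without JMJD3 library 2, and CDK6 also did not pass on FPKM or with no filter on low counts. Within lane 17 the counts were 6 higher and 14 lower, where 4248 and 4212 of all genes were. Without JMJD3 library 1 there were 3 lower and without JMJD3 library 2 there was 1 lower, and the DESeq2 Wald test, upper quartile scaling and the replicate block each called 2 higher.

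Myeloid genes described as C/EBP targets were called in both directions. Of 24 genes 20 were tested, 5 were higher and 9 lower, against 21.6% and 19.1% of all tested genes, and the median log2 fold change was -0.32. CTSG, the granule protease cathepsin G, had 145 and 164 CPM in the vector libraries and 11.0 and 9.61 CPM in the JMJD3 libraries, a log2 fold change of -3.91 (-4.04 within lane 17, edgeR adjusted p = 9.25e-05). ID2, an inhibitor of helix-loop-helix factors, and CHI3L1, a secreted glycoprotein of granulocytes, fell by 1.99 and 1.96 on the log2 scale (edgeR adjusted p = 0.000375 and 0.00026). CSF1R, the receptor for macrophage colony-stimulating factor, rose from 4.94 and 3.85 CPM to 12.9 CPM in each JMJD3 library, a log2 fold change of 1.56 (1.70 within lane 17, edgeR adjusted p = 0.0014), and ITGAM, which encodes CD11b, by 0.59 (edgeR adjusted p = 0.01). ITGAM did not pass on FPKM or without JMJD3 library 2. The other higher genes, chosen after their values were seen, were ID1, CAMP and BPI, with 14 reads or fewer in each vector library and between 13 and 33 reads in each JMJD3 library. Within lane 17, ID1 and CAMP did not pass (edgeR adjusted p = 0.0786 and 0.0681). The secondary granule genes LCN2 and MMP8, which C/EBPε is known to control, had 0 reads in all libraries. CSF3R, the granulocyte colony-stimulating factor receptor and a C/EBPα target, had a log2 fold change of 0.26 and did not pass (edgeR adjusted p = 0.0551). These 3 were also chosen after their values were seen. The count of higher genes was between 1 and 7 over the alternatives, with 1 without JMJD3 library 2, and was 4 within lane 17.

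Genes around DDIT3 and TRIB3 in the stress response were called in both directions. Of 24 genes for stress kinases and sensors and for ATF4 or DDIT3 targets, 22 were tested, 5 were higher and 6 lower, against 21.6% and 19.1% of all tested genes, and the median log2 fold change was -0.03. EIF2AK3, the endoplasmic reticulum stress kinase PERK, went from 8.66 and 6.45 CPM to 15.5 and 14.4 CPM, a log2 fold change of 0.99 (1.17 within lane 17, edgeR adjusted p = 0.00508). DDIT4 rose by 0.87 and the chaperone gene HSPA5 by 0.41 on the log2 scale (edgeR adjusted p = 0.00267 and 0.00518). STC2, at 2.46, and TNFRSF10B, at 0.28, were also higher and were chosen after their values were seen. STC2 was low, with 12 and 18 reads in the vector and 87 and 114 in the JMJD3 libraries and a mean FPKM of 0.318. TNFRSF10B was close to the threshold (edgeR adjusted p = 0.0495). In the other direction, the amino acid response genes ASNS and SLC7A11 and the lipoprotein receptor gene VLDLR fell by 1.35, 1.35 and 1.36 on the log2 scale (edgeR adjusted p = 0.000823, 0.0025 and 0.00277). ATF4, which acts upstream of DDIT3, was lower while DDIT3 was higher. Within lane 17, where 4248 of all genes were higher and 4212 lower, there were 8 higher and 9 lower genes, and over the alternatives from 4 to 8 higher and from 4 to 9 lower.

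**Figure D5:**
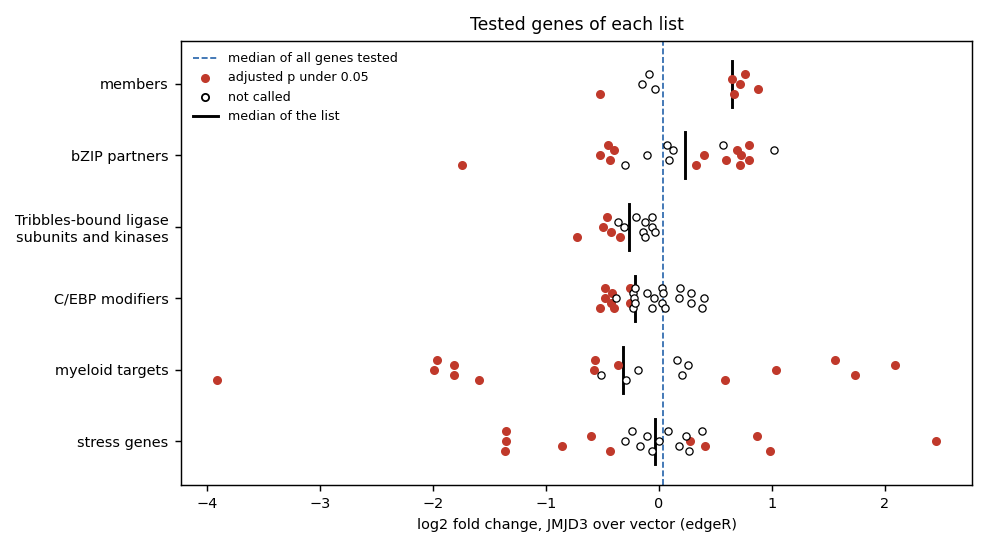
Log2 fold change of JMJD3 over vector (x axis, edgeR) for the tested members and the tested genes of the 5 lists. Filled points had an adjusted p under 0.05, black bars are list medians and the dashed line is the median of all tested genes, 0.04. The median was 0.65 for the members and -0.32 for the myeloid targets, among which CTSG lies at -3.91.

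Markers of cell types were read beside these changes. Of 6 promyelocyte markers 5 were tested, and MPO, PRTN3, AZU1 and CTSG were lower while CD33 was higher. Their summed CPM was 16600 and 17400 in the vector libraries and 10500 and 10400 in the JMJD3 libraries, led by MPO, at 14000 against 9400 CPM. ELANE, a defining gene of promyelocytes, had between 1 and 11 reads in each library. The 5 erythroid markers were at 0 in all libraries. The 4 monocyte markers summed to 5.26, 4.06, 13.3 and 13.2 CPM in vector libraries 1 and 2 and JMJD3 libraries 1 and 2, nearly all from CSF1R, with FCGR3A at 0. The 5 T and B cell markers summed to 10.7, 11.9, 17.8 and 16.2 CPM in that order, with MS4A1 at 0, and CD79A, which led them, was higher (log2 fold change 0.83, edgeR adjusted p = 0.00416). The 4 megakaryocyte markers summed to 0.621, 0.707, 1.78 and 1.67 CPM in that order, with PF4 and GP9 at 0, and ITGA2B, which led them, was higher (log2 fold change 1.43, edgeR adjusted p = 0.00542). The 4 epithelial markers summed to 6.64, 7.49, 3.43 and 2.81 CPM in that order, with CDH1 at 0, and EPCAM, which led them in vector cells, was lower (log2 fold change -2.05, edgeR adjusted p = 0.00115). The part of these marker shifts in the values of the C/EBP genes was not tested.

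Other genes of the annotation that overlap a member were also looked up. Around CEBPA, the antisense genes ENSG00000267727 and ENSG00000267580 share 18.5% and 25.3% of its exon bases. The former had 355, 487, 393 and 483 reads in vector libraries 1 and 2 and JMJD3 libraries 1 and 2, with a log2 fold change of -0.19 (edgeR adjusted p = 0.289), and the latter at most 6 reads in a library. CEBPB-AS1 shares 12.6% of the exon bases of CEBPB and had 39, 51, 50 and 56 reads in that order, with a log2 fold change of -0.01 (edgeR adjusted p = 0.981). For DDIT3, MBD6 shares 4.44% of the exon bases on the opposite strand. It had 1761, 2013, 1641 and 2037 reads in that order and was lower (log2 fold change -0.29, edgeR adjusted p = 0.0418). Of the other genes there, ENSG00000285133 was not in the table and MIR616 had 0 reads. Of CEBPZ, ENSG00000272054 shares 11.6% and had 67 reads or fewer in each library. MIR3125, within TRIB2, had 0 reads. No overlapping gene was found for CEBPD, CEBPE, CEBPG, TRIB1 or TRIB3.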

How the data were processed

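RNA from 4 NB4 libraries was measured, 2 with empty vector and 2 with JMJD3. The deposited table gives FPKM and an estimated count for every gene in each library, both from the authors. It also holds group means and the authors' own fold changes, p-values and FDR, which were not used. The submitters' processing notes name CASAVA 1.8, TopHat2 2.0.4, RSEM, edgeR and GRCh38, the study's methods name STAR, hg19, HTSeq-count and DESeq2, and the series text names BWA and Cufflinks. The table's 5729 newest gene identifiers belong to annotations later than those of hg19, and gene and promoter positions are from RefSeq on GRCh38.p14. Overlaps were taken from GENCODE release 44 as lifted to hg19. The source of the constant by which counts were scaled is not given in the sources used here. The labels name DMEM and Trizol, the methods RPMI-1640 and a column kit.

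Estimated counts were rounded to whole numbers, filtered with filterByExpr, given TMM factors and tested in R 4.3.3 by edgeR 4.0.16 (glmQLFit, glmQLFTest), with Benjamini-Hochberg adjustment over all tested genes and no covariate. The standard error was the log2 fold change divided by the square root of F, and 95% intervals used the test's degrees of freedom. The fits were tested on simulated data. Alternatives were DESeq2 1.42.0 size factors and Wald test, upper quartile scaling, limma 3.58.1 on log2 FPKM with 1 or 0.1 added, omission of the filter, at least 10 counts in every library, a replicate block, each library left out, a 2-fold limit and shares on CPM. Recovered reads and a crossed block were added after seeing the data.

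The members and lists were chosen with earlier results of these data known. The genes named were the members, KDM6B and, from each list, up to 3 higher and 3 lower genes with the largest log2 fold change at an adjusted p under 0.05 and a mean FPKM of at least 1, not all of which are printed, with the 3 nearest genes to CEBPA, CEBPB and TRIB1 and genes that overlap a member.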

Additional observations from a re-analysis of the deposited data

How the results depend on the processing

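CEBPD, CEBPE, DDIT3, TRIB1 and KDM6B kept their direction and their side of the threshold under all 14 alternatives with a test. Over the alternatives that kept all libraries, including 2 chosen after seeing the data, log2 fold changes were 0.62 to 0.71 for CEBPD, 0.69 to 0.76 for CEBPE, 0.85 to 0.92 for DDIT3, 0.71 to 0.80 for TRIB1 and 1.19 to 1.51 for KDM6B. The 2-fold limit left 1151 genes higher and 430 lower in JMJD3 cells and 0 members in either direction. The largest log2 fold change of a member was 0.88, that of DDIT3.

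Limma called 2046 genes higher and 2260 lower on log2(FPKM + 1) and 2032 and 2291 on log2(FPKM + 0.1), the DESeq2 Wald test 2459 and 2811 and DESeq2 size factors 3096 and 3130, so that more were lower than higher. With no filter on low counts 1893 genes were higher and 1776 lower, against 3292 and 2906. The cause was not tested. CEBPG was at 0.01 with upper quartile scaling. Fits that left out 1 library assume that the lone sample of a group varies like the others. They called between 1890 and 4248 genes higher and between 1110 and 4212 lower, 4 or 5 members higher and 0 to 2 lower. Across them the log2 fold change was from -0.67 to -0.41 for CEBPA, which did not pass without JMJD3 replicate 2, from 0.48 to 0.81 for CEBPB, which did not pass without JMJD3 replicate 1, from -0.25 to -0.09 for CEBPZ, which passed without vector replicate 2 and was at -0.35 with limma on FPKM, and from -0.25 to 0.03 for TRIB3, which passed without vector replicate 1 and turned sign without vector replicate 2. The cause of these moves, other than fewer samples, was not tested. Alternatives for the family shares were run for CEBPA, CEBPB and CEBPE only. With 1 library left out the differences were from -18.8 to -17.9, from 0.765 to 1.32 and from 10.0 to 11.9 percentage points, and on CPM -17.9, 1.36 and 10.3.

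With the replicate number as a block 3267 genes were higher and 2415 lower, and 5 members were higher and 1 lower. Over genes, replicate 1 deviated from its group mean with a correlation of -0.146 between groups, and no source pairs the libraries by number. With crossed numbers, a block chosen after seeing the data, 4335 genes were higher and 3772 lower. The fit on recovered whole reads, also chosen after seeing the data, called 6219 genes, 6176 of them among the 6198 called on deposited counts, and the same number of members in each direction. Under other scalings the median over all genes shifted by less than 0.1 in log2. The protein comparison was not run.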
